A study of Ananas comosus with 3 samples.

Results

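Glyceraldehyde 3-phosphate dehydrogenase (GAPDH) was represented on the pineapple array by 30 cDNA elements, each a PCR-amplified clone, of 9278 elements in all. The members were the clones whose deposited gene name reads glyceraldehyde 3-phosphate dehydrogenase, which gave 24 elements, together with 6 clones that received the number of one of these contigs after further sequencing. They fell into 6 contigs, or groups of overlapping clone sequences, of the 7773 contigs and unassembled elements tested. Contig 763 and contig 816 are described as cytosolic, contigs 136, 137 and 686 carry no compartment in their description, and contig 910 is described as GAPDH of a nematode.

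Mature green and mature yellow fruits of field-grown pineapple (*A. comosus* Smooth Cayenne, clone C10, a single vegetatively propagated line) were compared by hybridizing cDNA of both to each of 3 slides. No treatment was applied and the ripening stage was graded by appearance, so that the comparison is of unripe with ripe flesh taken from the middle part of the fruit with skin and pith removed. On replicates 1 and 3 yellow fruit was in the Cy3 channel and green fruit in the Cy5 channel, and replicate 2 had the reverse labeling. The number of fruits behind each slide and whether the slides share RNA extracts are not given in the sources used here, so the SDs and p-values cover the spread between these slides, which may be technical.

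GAPDH catalyzes the oxidation and phosphorylation of glyceraldehyde 3-phosphate to 1,3-bisphosphoglycerate with reduction of NAD+, the step of glycolysis that yields NADH. Plants carry cytosolic NAD-dependent forms (GAPC), plastidic NAD-dependent forms of non-green tissue (GAPCp) and the NADP-using chloroplast forms of the Calvin cycle, all encoded in the nucleus. In ripening fruit the cytosolic forms serve the breakdown of sugars to pyruvate. In the study's annotation the closest *Arabidopsis* genes are the cytosolic GAPC1 for contig 763, the cytosolic GAPC2 for contig 816 and a plastidic GAPCp gene for contig 686.

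All ratios below are log2 ratios of mature yellow over mature green fruit after background correction and normalization within each slide, so that 1 is a doubling. An increase or decrease was called where its size reached 1.5-fold and its p-value in limma, adjusted over all features, was under 0.05. Of all features, 0.129% were called in either direction and 0.0515% were called higher in yellow fruit. Of the 6 GAPDH contigs, 1 was called, contig 816, and it was higher in yellow fruit. The other 5 did not pass the test after adjustment. An unadjusted p under 0.05 with a higher level in yellow fruit was found for 5 contigs, against 5.43% of all features. A mean of 1.5-fold or more higher was found for 3 contigs, namely 763, 816 and 910, against 3.18% of all features, and for 2 contigs, without 910, when spots marked abnormal were kept. Of the 5 contigs measured on 3 slides, 4 were higher in yellow fruit on every slide, against 18.3% of all features. The median log2 ratio of the 6 contigs was 0.70, and that of all features 0.0075. Contig 136 had a mean near 0 whose sign depends on the processing, and the other 5 contigs kept a positive mean under every alternative tried.

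Slides agreed only in part over all features, with pairwise correlations across features of 0.41, 0.67 and 0.37, and features are not independent replicates. The median spot lay above its local background by 27.9 to 67.0 scanner units in the yellow channel and by 15.8 to 116 in the green channel, and replicate 3 had the smallest ratios, with a median absolute log2 ratio of 0.032 against 0.13 and 0.15 on replicates 1 and 2. As a check of the tissue, fruit bromelain, the abundant cysteine protease of pineapple flesh, was found in 3 features, of which contig 3033 fell in yellow fruit to a log2 ratio of -3.57 (adjusted p = 0.046 in limma) while contigs 123 and 2985 were at -0.25 and -0.059 (adjusted p = 0.591 and 0.854 in limma), and 71.4% to 78.6% of the fruit bromelain spots exceeded the blank spots. The study also names contig 122 as fruit bromelain and contig 124 as bromelain inhibitor, whose descriptions are blank in the files, and these were at -4.44 ± 0.92 and -3.82 ± 0.53 (SD, n = 3, adjusted p = 0.121 and 0.0725 in limma). Among the deposited descriptions, 0 features matched the keywords for bromelain inhibitor and for the green tissue markers (chlorophyll a/b-binding protein, rubisco small chain, photosystem), so the green tissue content of the samples was not examined with them. RNA was taken from whole flesh, so that fewer cells of a type and less RNA per cell cannot be told apart.

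**Figure D1:**
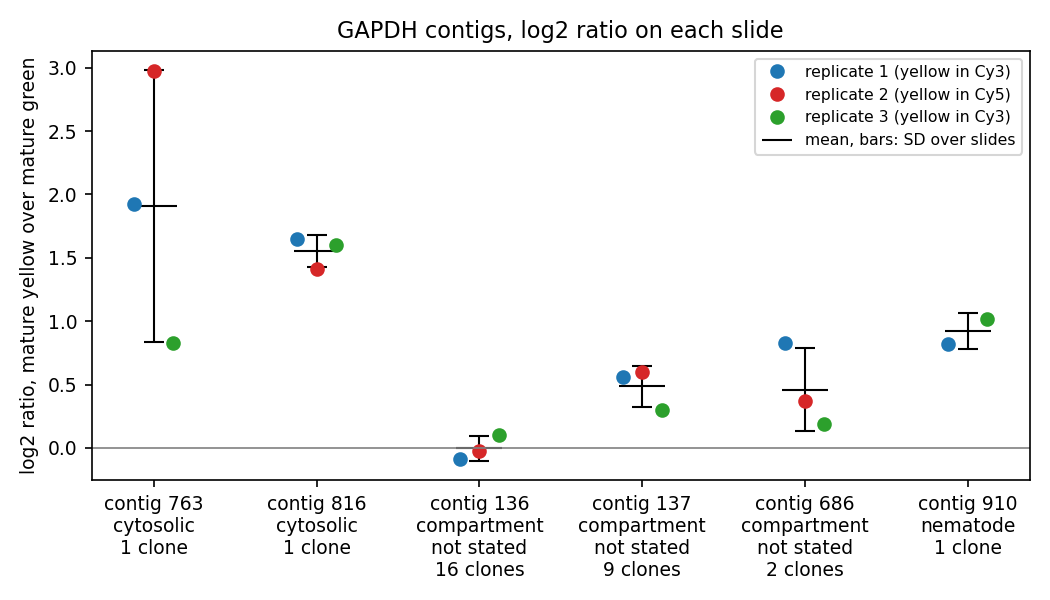
Log2 ratio of mature yellow over mature green fruit (vertical axis) for each of the 6 GAPDH contigs, with one coloured point per slide, the mean as a horizontal dash and the SD over slides as bars. The points of contig 816 lie close together between 1.41 and 1.65, those of contig 763 spread from 0.83 to 2.97, and those of contig 136 lie around 0.

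The cytosolic contig 816 gave a log2 ratio of 1.65 on replicate 1, 1.41 on replicate 2 and 1.60 on replicate 3. All 3 slides were high, the dye-swapped slide included, and their range was narrower than that of contigs 763, 137 and 686. It was wider than that of contig 136, from -0.088 to 0.10, and of contig 910, from 0.82 to 1.02 on 2 slides. The mean of contig 816 was 1.55 ± 0.13 (SD, n = 3 slides), a 2.93-fold higher level in yellow fruit, with a 95% confidence interval from limma of 2.53-fold to 3.40-fold. The increase passed the test with an adjusted p of 0.046 in limma, and contig 816 ranked 20 among all features by size of increase and 10 by p-value. The call lies near the threshold, and under scale normalization between the slides the mean was 2.04 with an adjusted p of 0.564 in limma.

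Before normalization, the single clone of contig 816 (JBW043H07) gave 2859 units above local background with yellow fruit cDNA and 813 units with green fruit cDNA on replicate 1. On replicate 2 the signals were 2869 and 1751 units, and on replicate 3 they were 2303 and 648 units. The yellow signal was therefore steady over the slides and above the green signal on each of them. The ratio of the signals was 3.52 and 3.55 on the slides with yellow fruit in Cy3, and 1.64 on the slide with yellow fruit in Cy5. Normalization brought these ratios together. For the median spot of the whole array the green channel was the brighter one on replicate 2 and the dimmer one on replicates 1 and 3.

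The other cytosolic contig, 763, gave a log2 ratio of 1.92 on replicate 1, 2.97 on replicate 2 and 0.83 on replicate 3. Yellow fruit was higher on all slides, but the size of the difference varied widely, with the dye-swapped slide highest. The mean was 1.91 ± 1.07 (SD, n = 3), or 3.75-fold, with a 95% confidence interval of the log2 ratio from 0.58 to 3.23. It ranked 8 among all features by size of increase, yet did not pass the test (adjusted p = 0.414 in limma). In the deposited processed values the mean was 3.36 with an adjusted p of 5.1e-12 in limma, but these values had a median log2 ratio of 1.03 over their contigs on replicate 3, against 0.14 and 0.059 on replicates 1 and 2. Over spots that passed the 2xSD test of the authors it was 1.47 with an adjusted p of 0.0445 in limma.

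The clone of contig 763 (JBW043A12) was bright on replicates 1 and 2 and dim on replicate 3. Its signals above background were 4012 units in yellow and 1042 in green on replicate 1. They were 14699 and 3502 units on replicate 2, and 256 and 52.5 units on replicate 3. The ratios of these raw signals, 3.85, 4.20 and 4.87, were closer to each other than the normalized ratios were. With plain subtraction of the background, without the added offset of 50 units, the log2 ratios of contig 763 were 1.42, 2.45 and 1.41, and the dye-swapped slide was again the highest.

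The difference between the cytosolic contigs was smaller than its spread, 763 minus 816 being 0.36 ± 1.17 (SD, n = 3). The difference was 0.27 on replicate 1, 1.56 on replicate 2 and -0.77 on replicate 3, so that their order was not the same on every slide (two-sided exact permutation test of signs, p = 0.75). Without replicate 2 the difference was -0.25. With plain subtraction contig 816 was at 1.24, 1.18 and 0.94 on the 3 slides, below contig 763 on each of them. The order on replicate 3, where the clone of contig 763 was dim, thus depended on the background correction. Scale normalization between slides gave a mean difference of -0.32. On the data of 3 slides the response of these contigs could not be ordered.

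Contig 136 was the most abundant GAPDH contig in clones, with 16 elements, and its description names no compartment. Its mean over all elements was -0.088, -0.025 and 0.10 on the 3 slides, -0.0036 ± 0.097 (SD, n = 3, adjusted p = 0.991 in limma). This mean combined clones that lay on opposite sides of 0, and it includes 6 clones that the study had picked for a change on these slides. Of the 16 elements, 13 had a mean above 0, 10 were higher in yellow fruit on all slides and 2 were lower on all slides. The 10 clones that already carried this contig number averaged 0.16, 0.53 and 0.20 on the 3 slides, with a mean of 0.29 and single clones between -0.026 and 0.74. With contig 136 restricted to these clones, the mean did not pass the test (adjusted p = 0.432 in limma).

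The other 6 clones of contig 136 were sequenced later by the study, among clones picked for a change of 1.5-fold or more on these same slides. Their single values are therefore a description, and the tests of contig 136 that include them are not independent of that choice. Of these, 4 lay above 0 on every slide, with means between 0.80 and 1.20, JBW073A08 being the highest at 1.11, 1.35 and 1.15 on the 3 slides. JBW014C11 gave 1.68, 0.59 and 1.04, JBW034C10 gave 1.47, 0.87 and 0.96, and JBW011G01 gave 1.19, 0.48 and 0.74. Each of the last 3 was lowest on the dye-swapped slide.

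The remaining later-sequenced clones of contig 136 went the other way by a wide margin. JBW011C01 gave log2 ratios of -5.29, -5.51 and -2.40, a mean of -4.40 ± 1.73 (SD, n = 3). Its green signal was 18767, 56466 and 404 units on the 3 slides and its yellow signal 359, 573 and 18.0 units. With green fruit cDNA it was the brightest of all GAPDH clones on replicates 1 and 2, while its ratio of yellow to green signal was only 0.0191, 0.0101 and 0.0445 on the 3 slides. One of its spots on replicate 2 was at the top of the scanner's range. JBW011H02 gave -3.12, -3.46 and -1.84, a mean of -2.81 ± 0.85, from green signals of 498, 1681 and 237 units and yellow signals of 19, 28 and 13.1 units. The size of both decreases is uncertain. The yellow signals of JBW011H02 on all slides, and those of JBW011C01 on replicates 1 and 3, were under the limit of the blank spots for that channel (527, 373 and 75.0 units on the 3 slides). With this limit in place of a lower yellow signal, the unnormalized green signal of JBW011C01 was at least 35.6-fold, 98.5-fold and 5.39-fold higher on the 3 slides, and that of JBW011H02 at least 4.504-fold and 3.16-fold higher on replicates 2 and 3, with no fold on replicate 1. With plain subtraction the means were -5.91 ± 0.49 for JBW011C01 and -5.22 ± 0.14 for JBW011H02. Both clones were far from the other 14 elements of contig 136, which lay between -0.026 and 1.20 with a mean of 0.51. Leaving them out is a choice made after their values were seen, and whether both clones carry the sequence of contig 136 was not tested. No other GAPDH clone was 1.5-fold or more lower in yellow fruit.

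**Figure D2:**
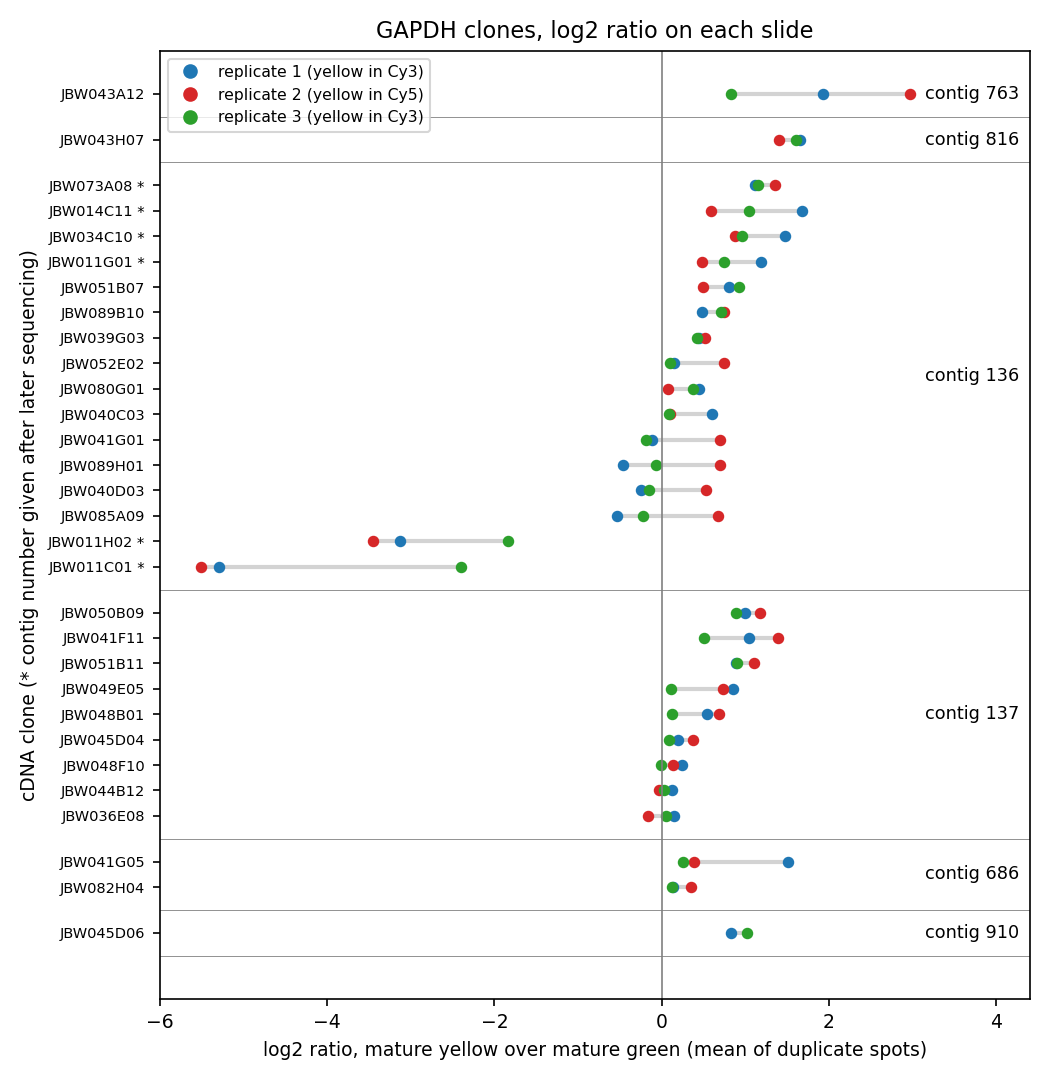
Log2 ratio of mature yellow over mature green fruit (horizontal axis) for each of the 30 GAPDH clones, grouped by contig, with one coloured point per slide and a grey bar over their range; an asterisk marks the 6 clones of contig 136 that were numbered after later sequencing. All clones lie near or to the right of 0 except JBW011H02 and JBW011C01, with means of -2.81 and -4.40.

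The earlier clones of contig 136 differed in how the dye-swapped slide compared with the others. JBW041G01, JBW089H01, JBW040D03 and JBW085A09 were below 0 on replicates 1 and 3 and above 0 on replicate 2, at 0.53 to 0.70 there. The means of these 4 clones lay between -0.026 and 0.13, with SDs of 0.43 to 0.62, larger than the means. The duplicate spots of a clone on a slide differed by a median of 0.074 over the 89 pairs of GAPDH spots and by at most 0.48, which measures the spread within a slide only. JBW051B07, JBW089B10 and JBW039G03 were above 0 on every slide, with means of 0.74, 0.65 and 0.46, and so were JBW052E02, JBW080G01 and JBW040C03, with means of 0.33, 0.30 and 0.26. Replicate 2 was the highest slide for JBW089B10, JBW039G03 and JBW052E02, the lowest for JBW051B07 and JBW080G01, and between the others for JBW040C03.

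Contig 137 held 9 clones and no compartment is named for it. Its log2 ratio was 0.56, 0.60 and 0.30 on the 3 slides, a mean of 0.48 ± 0.16 (SD, n = 3), or 1.40-fold. All slides were above 0, and the increase did not pass the test (adjusted p = 0.276 in limma). The mean of each of the 9 clones lay above 0, between 0.011 and 1.02, and 6 were above 0 on all slides. The clones also differed in brightness. Above the limit set by the blank spots (their mean plus 2 SD in at least 1 channel) lay 3 clones on every slide, and 4 clones on none. The 3 bright clones had the highest ratios, JBW050B09 with 0.997, 1.18 and 0.89, JBW041F11 with 1.04, 1.40 and 0.51, and JBW051B11 with 0.88, 1.10 and 0.90. The 4 clones under the limit on every slide were JBW048B01, JBW048F10, JBW044B12 and JBW036E08, with means of 0.45, 0.12, 0.039 and 0.011. With plain subtraction their means were 1.198, -0.95, 0.26 and 0.44, so that their size could not be settled at such signals. Nor could the direction of JBW048F10, JBW044B12 and JBW036E08, each of which had slides on both sides of 0. JBW049E05 and JBW045D04, each above the limit on 1 slide, had means of 0.56 and 0.22. Over spots above the limit alone, contig 137 had a mean of 0.75 (adjusted p = 0.136 in limma), and in the deposited processed values, with the shift on replicate 3 given above, its mean was 1.21 and passed the test (adjusted p = 0.0344 in limma).

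Contig 686, matched to a plastidic form, held 2 clones with unlike signals. The contig gave 0.83, 0.37 and 0.19 on the 3 slides, a mean of 0.46 ± 0.33 (SD, n = 3), or 1.38-fold, and did not pass the test (adjusted p = 0.535 in limma). JBW041G05 gave 1.52 on replicate 1 but 0.39 and 0.26 on replicates 2 and 3, a mean of 0.72. Its signals on replicate 3 were dim, at 98.6 units in yellow and 30.9 in green. With plain subtraction it gave 0.97, 0.10 and 0.79, with the dye-swapped slide lowest. The weight of replicate 1 in the mean thus depended on the background correction. JBW082H04 gave 0.14, 0.35 and 0.12, and its signal was under the blank limit on all slides.

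Contig 910 was the only GAPDH clone described as nematode, in an array whose clones also came from nematode-infected roots. Its single clone (JBW045D06) gave 0.82 on replicate 1 and 1.02 on replicate 3, and the spots on the dye-swapped slide were marked abnormal by the scanner software and dropped. The mean was 0.92 ± 0.14 (SD, n = 2), or 1.89-fold, and did not pass the test (adjusted p = 0.231 in limma). With the abnormal spots kept, contig 910 gave -0.086 on the dye-swapped slide and a mean of 0.58 (adjusted p = 0.590 in limma). Its mean was 0.55 with plain subtraction, 0.50 over spots past the 2xSD test and 1.62 with scale normalization between slides. Without the abnormal spots, both slides carried yellow fruit cDNA in Cy3, so that dye and ripening stage cannot be told apart for this contig. Its signals, 1912 units in yellow and 951 in green on replicate 1, and 804 and 271 on replicate 3, were as bright as those of several pineapple GAPDH clones. The labeled cDNA came from fruit flesh, and whether pineapple GAPDH cDNA bound this clone was not tested.

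**Figure D3:**
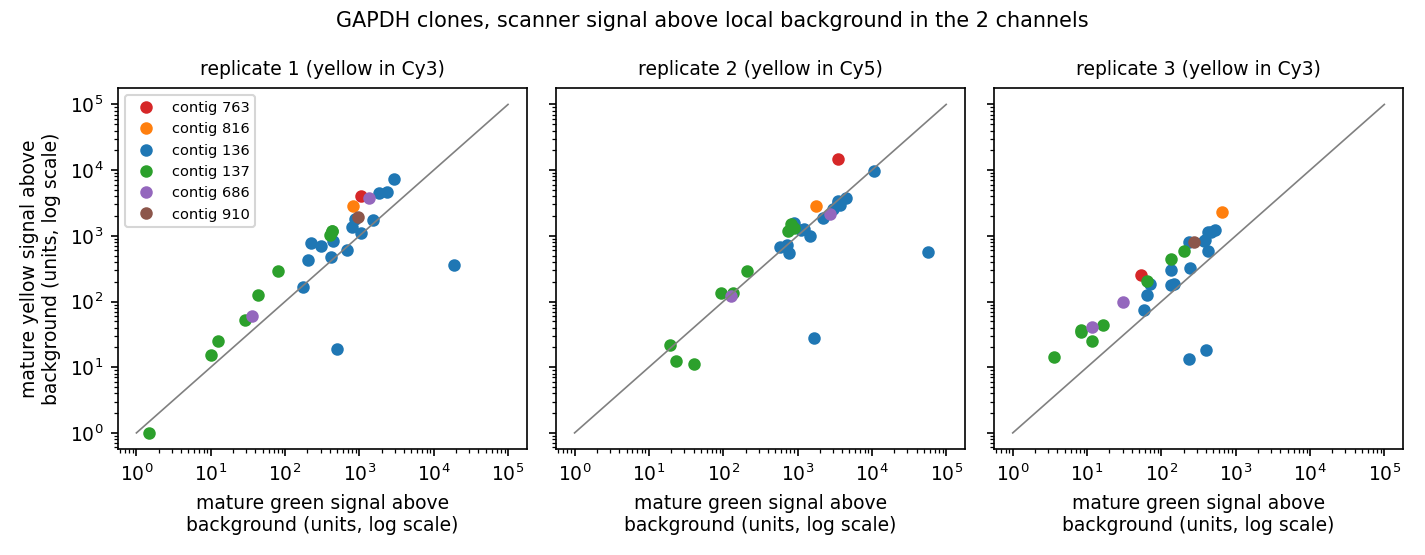
Scanner signal above local background with mature green cDNA (horizontal axis, log scale) and mature yellow cDNA (vertical axis, log scale) for each GAPDH clone on each slide, coloured by contig, with the line of equal signal; signals are not normalized, and 1 clone of contig 137 with a yellow signal below background on replicate 3 is not drawn. Contigs 763 and 816 lie above the line on all slides, and JBW011C01 and JBW011H02 of contig 136 lie far below it.

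With each clone tested as a feature of its own, 3 of the 24 clones chosen by gene name were called higher in yellow fruit, against 0.507% of all elements, and 0 were called lower, against 1.89% of all elements (limma, with 12 higher at an unadjusted p under 0.05, against 6.16% of all elements, and 0 lower). The called clones were JBW043H07 of contig 816 and JBW050B09 and JBW051B11 of contig 137, with adjusted p-values of 0.014, 0.029 and 0.0254 in limma. Of the 24 clones, 23 had a mean above 0, against 52.8% of all elements, and 17 were above 0 on every slide they were measured on, against 19.5% of all elements. Their median log2 ratio was 0.39, against 0.0065 over all elements. Clones of one contig, and to a lesser degree clones of different GAPDH contigs, share sequence and can bind the same cDNA, so that the 24 values are not independent.

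The mean of the cytosolic contigs exceeded the mean of the contigs without a named compartment by 1.35, 1.88 and 1.02 on the 3 slides. The difference was 1.42 ± 0.43 (SD, n = 3) and had the same direction on every slide (two-sided exact permutation test of signs, p = 0.25, the smallest that 3 slides allow). This test cannot reach 0.05 with 3 slides. With contig 136 restricted to its earlier clones the difference was 1.32. The groups follow the wording of the descriptions alone. The compartment of contigs 136 and 137 is not known here, and contig 686 is matched to a plastidic form. The contigs without a named compartment may therefore mix compartments. Contig 816 exceeded contig 136 by 1.56 ± 0.16, contig 137 by 1.07 ± 0.25 and contig 686 by 1.09 ± 0.30, in each case on all slides. Contig 763 also exceeded these contigs on all slides, but with SDs of 0.92 to 1.14. The differences from contig 136 use its mean over all clones. That mean was 0.29 over the earlier clones and 0.51 without JBW011C01 and JBW011H02, which would make these differences smaller. Contigs 137 and 686 hold clones under the blank limit, whose ratios the offset draws toward 0. With plain subtraction contigs 816, 136, 137 and 686 were at 1.12, -0.50, 0.62 and 0.64. Over spots above the blanks they were at 1.15, -0.24, 0.75 and 0.40. Contigs 137 and 686 differed by 0.025 ± 0.26, which is within the spread between slides. Of the 15 pairs of contigs, 11 had one order on all slides they shared, and the lowest adjusted p over the pairs was 0.469 in the exact permutation test. Of these 15 pairs, 10 shared 3 slides and the others 2. With random signs a pair has one order with probability 0.25 on 3 slides and 0.5 on 2. The pairs reuse the same 6 contigs and are not independent. In order of the mean, the contigs ran 763, 816, 910, 137, 686 and 136, but the pairs 763 and 816, 763 and 910, 137 and 686, and 686 and 910 changed order between slides. With plain subtraction contig 763 lay above contigs 816 and 910 on every slide they shared. On the slides shared with contig 910, contig 763 was then at 1.42 and 1.41, against 0.42 and 0.68. These changes of order of contig 763 thus depended on the background correction. Contig 910 lay below contig 137 with plain subtraction, over spots above the blanks, over spots past the 2xSD test and in the deposited values. It lay below contig 686 with plain subtraction (0.55 against 0.64) and in the deposited values (1.02 against 1.33). In the other alternatives that gave both a value, contig 910 lay above contig 686. Since similar GAPDH cDNAs can bind each other's clones, the measured differences between contigs may not equal the differences between their transcripts.

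GAPDH was set beside 21 features of the other enzymes of glycolysis and fermentation, found by fixed keywords in the descriptions. Of these, 16 had a mean above 0 and 5 below 0, against 53.2% of all features above 0. In limma, 0 were called in either direction, against 0.129% of all features, a share too small for 21 features to be informative. An unadjusted p under 0.05 was found for 4 higher and 0 lower, against 5.43% of all features higher. The median of the 21 features was 0.045, against 0.0075 over all features. The highest values were those of enolase, which makes phosphoenolpyruvate, pyruvate decarboxylase, the first enzyme of ethanol fermentation, and triose-phosphate isomerase, which supplies the substrate of GAPDH. Pyruvate decarboxylase contig 251, aldolase contig 280 and enolase contig 30 held 2, 2 and 11 clones. In each, 1 clone was sequenced later, among those picked for a change on these same slides. The values of these 3 contigs, and the counts that include them, are not independent of that choice.

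Upstream of GAPDH, the triose-phosphate isomerase contig 3191 gave 1.14, 0.44 and 0.83, a mean of 0.80 ± 0.35 (adjusted p = 0.330 in limma), and the isomerase described as a chloroplast precursor had a mean of 0.0017 on 2 slides. Fructose-bisphosphate aldolase, which forms the triose phosphates, had means of 0.37 (contig 280) and -0.25 (contig 3389). Hexokinase was at -0.082 on 2 slides, and glucose-6-phosphate isomerase was at 0.045. For phosphofructokinase the keyword matched no feature, and 2 features spelled pyrophosphate-dependent phosphofructo-1-kinase, outside the list, had means of 0.15 and 0.22.

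Downstream, phosphoglycerate kinase, which uses the product of GAPDH, had a mean of 0.082 ± 0.14 for its cytosolic form (contig 2549). Phosphoglycerate mutase had means of 0.30 and -0.052. Enolase was above 0 on every slide in both of its contigs, contig 30 with 0.99, 0.93 and 0.70 over 11 clones (mean 0.87 ± 0.15, adjusted p = 0.121 in limma) and contig 1394 with 1.75, 1.02 and 0.65 (mean 1.14 ± 0.56, adjusted p = 0.372 in limma). The 4 pyruvate kinase features, including contig 2761, which is described as nematode, lay between -0.21 and 0.051. In fermentation, pyruvate decarboxylase contig 251 gave 1.12, 2.10 and 0.16 (mean 1.13 ± 0.97, adjusted p = 0.566 in limma), the other pyruvate decarboxylase contig was at -0.13, and alcohol dehydrogenase contig 2169 was at 0.38 ± 0.098 (adjusted p = 0.267 in limma). Alcohol dehydrogenase contigs 566 and 579 were at 0.15 and 0.038 and lactate dehydrogenase contig 2133 at 0.033, and contig 1110, which the study names alcohol dehydrogenase and the deposited description does not, was at 0.71 ± 0.27 outside the list (adjusted p = 0.276 in limma). The 21 listed features thus had means from -0.25 to 1.14, below those of both cytosolic GAPDH contigs, and these differences were not tested.

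**Figure D4:**
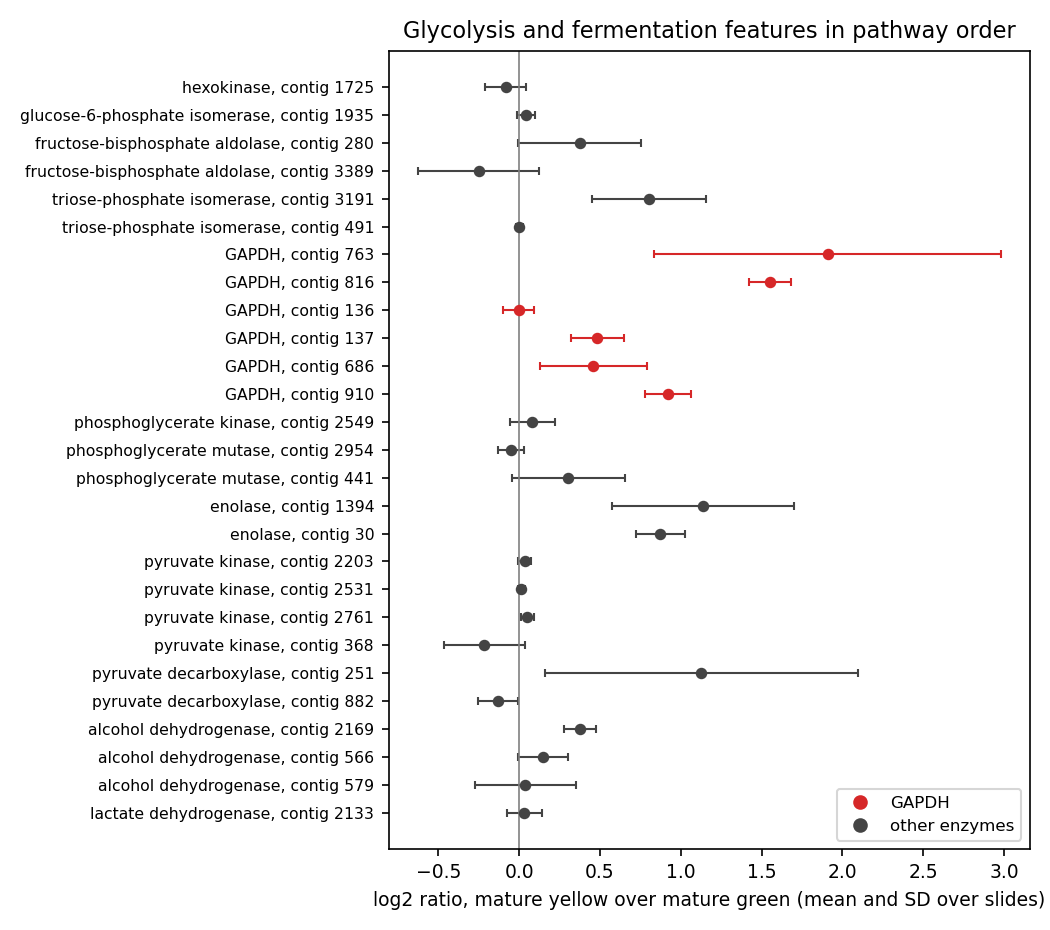
Mean log2 ratio of mature yellow over mature green fruit (horizontal axis) with the SD over slides as bars, for the 6 GAPDH contigs (red) among the 21 features of the other enzymes (grey), in the order of the pathway from hexokinase to lactate dehydrogenase. The cytosolic GAPDH contigs, at 1.91 and 1.55, lie to the right of every other enzyme, of which enolase contig 1394 at 1.14 is the highest.

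Among the 1361 named features measured on all slides, the profile nearest to contig 816 by Euclidean distance over the 3 log2 ratios was that of contig 55, a putative glutathione S-transferase, at 1.86, 1.59 and 1.73 (distance 0.31). It was followed by contig 3216, a quinone oxidoreductase-like protein (0.49), and contig 3218, a putative epoxide hydrolase (0.58). The profiles nearest to contig 763 were those of contig 2933 and contig 2915, both described as polyprotein, at distances of 0.79 and 1.0003, and that of pyruvate decarboxylase contig 251, at 1.36. Contig 2933 had 1.84, 2.19 and 0.85 on the 3 slides over 42 clones, which is the same order of slides as contig 763, with replicate 2 highest and replicate 3 lowest. These distances describe 3 slides only.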

How the data were processed

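Each slide compared cDNA of mature yellow with cDNA of mature green flesh in 2 colours. The intensity values that the authors deposited are scanner readings per spot for each channel and its local background, not normalized, given as medians for replicates 1 and 2 and as means for replicate 3. The authors also deposited a score per contig, a signed ratio from their GeneSpring processing with LOWESS, which served only as an alternative (its correlation with the log2 ratios computed here, across contigs, was 0.84, 0.86 and 0.81 on the 3 slides).

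Spots marked abnormal (318, 308 and 547) were left out. In limma 3.58.1 under R 4.3.3, intensities were corrected by normexp with an offset of 50, which draws ratios of dim spots toward 0, and each slide was normalized by loess, where blanks and controls had weight 0. The sign of each log2 ratio was set so that positive values mean more signal with yellow fruit cDNA. A clone's value is the mean of its duplicate spots, and a contig's value is the unweighted mean of its clones. Features measured on fewer than 2 slides were not tested. The fit held an intercept only, variances were moderated with 1.65 prior degrees of freedom, and p-values were adjusted by Benjamini-Hochberg over every feature tested. Pairs of contigs were compared by an exact permutation of signs. The fit alone was also run on simulated ratios with planted shifts. These were drawn independently for each slide, without a dye effect or background correction. That run therefore cannot show how dye or dim spots affect the calls. Figures were drawn with matplotlib 3.10.9 (Python 3.11.15). The precision is limited by the 3 slides.

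The GAPDH contigs, the keyword lists and the tests were chosen with earlier results of these data known. Every GAPDH contig and clone is named, each enzyme of the list by its features, and the 3 features nearest to contigs 763 and 816. No sequence of the clones was used here. The alternatives changed the background correction, the normalization, the treatment of dim, saturated and abnormal spots, the unit of a feature, the contig numbers and the fit, used the deposited values, or left out each slide. The median over clones of a contig was added after the data were seen.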

Additional observations from a re-analysis of the deposited data

How the results depend on the processing

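The number of features called over the array depended strongly on the processing. Against 10 features (40% of them higher in yellow fruit), limma called 34 with an offset of 0, 59 with plain subtraction, 18 without background correction, 6 with median centring (16.7% higher), 52 over spots above blanks, 106 over spots past the 2xSD test, 222 with each clone as a feature (21.2% higher), 227 with the earlier contig numbers alone (20.7% higher), 64 with a dye term (54.7% higher), 28 with trend and robust variances (25% higher), 138 in the deposited processed values (76.8% higher, with a median log2 ratio of 1.03 on replicate 3), and 0 to 5 without 1 slide. The higher share was 22.2% without background correction. It called 0 with scale normalization between slides and 0 with the median over clones, where 164 and 276 features were 1.5-fold or more with an unadjusted p under 0.05; without replicate 1 and without replicate 2 it also called 0, with 189 and 367 such features.

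Contig 816 kept its direction in all 18 alternatives and its call in 9. It lost the call with plain subtraction (1.12), median centring (1.37), scale normalization (2.04), abnormal spots kept (1.55), trend and robust variances (1.55), the median over clones (1.55) and without 1 slide (1.503 to 1.62, adjusted p 0.0713 to 0.775 in limma). Contig 763 kept its direction in all 18 and gained a call over spots past the 2xSD test (1.47) and in the deposited values (3.36). Contig 137 gained one in the deposited values (1.21). Contig 136, near 0, turned positive without background correction (0.13), with scale normalization (0.066), with the earlier contig numbers alone (0.29), in the deposited values (0.82) and with the median over clones (0.41), and ranged from -0.056 to 0.039 without 1 slide; with plain subtraction (-0.50), over spots past the 2xSD test (-0.30), over spots above blanks (-0.24) and with an offset of 0 (-0.20) it lay lower. The difference of 763 minus 816 turned to -0.32 with scale normalization and ranged from -0.25 to 0.92 without 1 slide. Apart from the fewer clones, spots or slides that some alternatives use by construction, the cause was not tested. Contig 910 had no value without replicate 1 or 3, and contigs of several clones none with each clone as a feature. The fit on ratios within slides is itself the paired comparison of the stages.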
